A study of Mus musculus with 4 samples.

Results

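The lungs of 4 groups of mice were profiled by mRNA-seq, and 5 genes were followed through the 4 libraries: Osr2, 3110039M20Rik, 3830403N18Rik, St18 and Adam11. They were chosen by their measured values, since each had its highest value in the lung of tumor-bearing mice that did not exercise, so that peak is a description and not a finding. They are 5 of the 23282 rows of each file. All 5 passed the filter, which asked for 4 or more normalized counts on average across libraries, as did 15164 rows in all, and 35.5% of those 15164 rows were also highest in that library.

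The groups crossed high-intensity treadmill running (E) with tumor (T), in male mice of the CDF1 strain labelled as postnatal day 28. By the study's methods the mice were bought at 4 weeks of age, and tissue was taken on day 19 of the experiment. The labelled day therefore precedes sampling. Normal control mice [E(-)T(-)] neither ran nor received cells, normal exercise mice [E(+)T(-)] ran, cancer control mice [E(-)T(+)] received CT26 cells without running, and cancer exercise mice [E(+)T(+)] received the cells and ran. CT26 is a murine colorectal carcinoma line, and it was given through the tail vein, a route that carries cells to the lung. Each group held 10 mice and gave 1 lung library, and the study names 1 representative animal per group for calf muscle and says that lung was examined in a similar way, without stating for lung RNA whether it came from 1 mouse or a pool. No difference below therefore has a replicate check, no test was made, and group and library cannot be told apart. Where values of the 4 libraries are listed below, the normal lungs come before the cancer lungs, and in each pair rest comes before exercise. In whole lung, a change in the number of cells that express a gene and a change in RNA per cell also cannot be told apart.

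Osr2 and St18 encode zinc finger transcription factors. Osr2 belongs to the odd-skipped family and acts in the mesenchyme of the secondary palate, tooth and limb joints. St18 belongs to the MYT1 family, whose members act in neurons and in endocrine cells of the pancreas. Adam11 encodes a membrane protein of the ADAM family that lacks protease activity and is known from neurons, where such proteins bind secreted LGI ligands. 3830403N18Rik is a relative of the X-linked lymphocyte-regulated (XLR) genes, and 3110039M20Rik is a long non-coding RNA gene. None of the 5 is a marker of lung epithelium or endothelium.

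Depth ranged from 9354489 reads in E(-)T(+) to 13368066 in E(+)T(+), as whole reads recovered from the deposited values. The 6 hemoglobin rows took 14.3% and 14.2% of reads in the normal lungs at rest and after exercise, but 1.43% and 31.4% in the cancer lungs, so the cancer libraries stood apart from the other 2 in opposite directions. Hbb-b1 and Hbb-bs had near-equal reads in every library, as did Hbb-b2 and Hbb-bt. The same reads may thus count in both rows of a pair, in these shares and in the depth. Lung tissue was checked with 9 markers of epithelium, airway and endothelium, and all 9 had reads in every library, from 171 reads of Foxj1 in E(-)T(+) upward. All 9 were 2-fold or more lower in E(-)T(+) than in E(-)T(-), with a median log2 difference of -2.39, and 8 of 9 were 2-fold or more higher in E(+)T(+) than in E(-)T(+), with a median of 2.48. Over all filtered rows 25.7% were lower by that limit in the former comparison and 24.3% were higher in the latter, and the medians were -0.03 and 0.01. The 7 cell division genes went the other way. All 7 were 2-fold or more higher in E(-)T(+) than in E(-)T(-) (median 4.96), where 20.6% of all filtered rows were. Between E(+)T(+) and E(-)T(+), 6 of 7 were lower in E(+)T(+) (median -1.97), where 17.7% of rows were. These shifts moved with the 5 genes, and their part in the differences below was not tested.

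Between E(-)T(+) and E(-)T(-), the tumor effect without exercise, all 5 genes were 2-fold or more higher in E(-)T(+), where 20.6% of filtered rows were. Between E(+)T(+) and E(-)T(+), the exercise effect with tumor, all 5 were 2-fold or more lower in E(+)T(+), where 17.7% of rows were. All 5 genes also stood 2-fold or more above every other library in E(-)T(+), as 10.1% of rows did. These 3 counts follow from how the genes were chosen, and nothing is read from them. The rule does not fix the order of the other 3 libraries. Between E(+)T(-) and E(-)T(-), the exercise effect without tumor, Osr2, 3110039M20Rik and 3830403N18Rik were 2-fold or more higher in E(+)T(-), on 29, 11 and 16 reads, and Adam11 was lower on 0 reads against 4, where 5.28% of rows were higher and 4.7% lower. Between E(+)T(+) and E(+)T(-), the tumor effect with exercise, Osr2, 3110039M20Rik, St18 and Adam11 were 2-fold or more higher in E(+)T(+) and 3830403N18Rik was lower, where 14.9% of rows were higher and 13% lower. The call of St18 rests there on 6 reads against 0 and that of Adam11 on 3 against 0. St18 and Adam11 passed the filter only through E(-)T(+), the library the genes were chosen for, so nothing is read from the number of genes in these comparisons against the share of rows either.

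**Figure D1:**
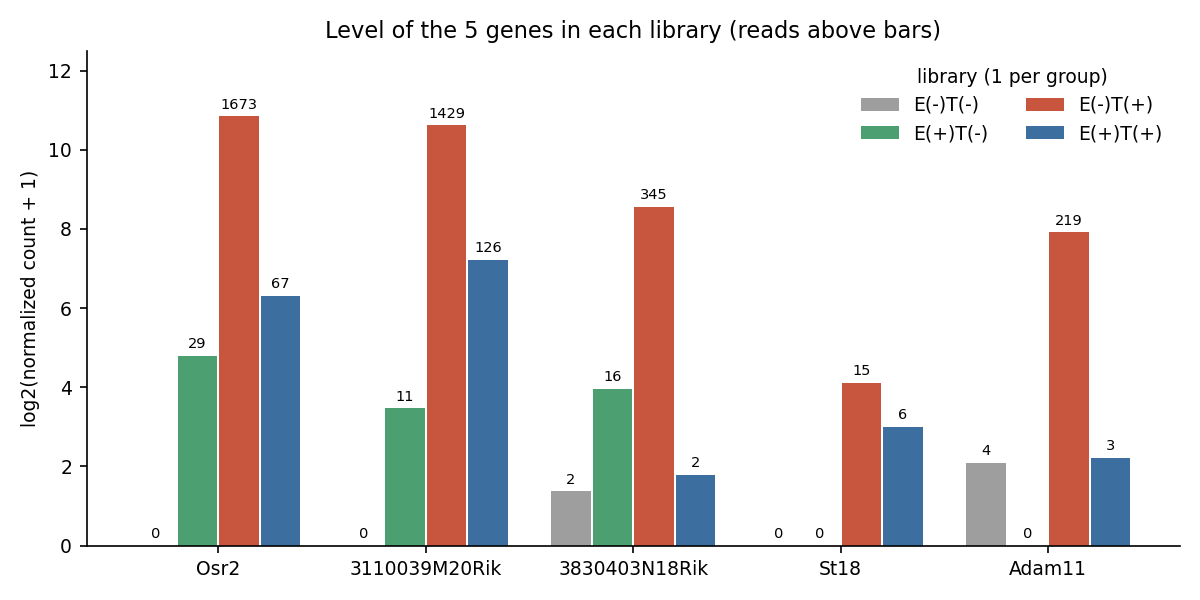
Deposited level of the 5 genes, as log2(normalized count + 1) on the vertical axis, in the 4 libraries (bars, 1 library per group), with the recovered reads above each bar. E(-)T(+) is the tallest bar for every gene, from 15 reads of St18 to 1673 of Osr2, while the next library is E(+)T(+) for 4 genes and E(+)T(-) for 3830403N18Rik.

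Osr2 lies on mouse chromosome 15 (mm10, chr15:35296098-35303305, plus strand, a protein-coding gene with up to 4 exons in GENCODE). Its log2 levels were 0 and 4.79 in the normal lungs at rest and after exercise, and 10.84 and 6.31 in the cancer lungs at rest and after exercise, from 0, 29, 1673 and 67 reads. E(-)T(-) was thus without a read, both exercised libraries were low, and E(-)T(+) was far above them. Against the floor of 3 reads that a count of 0 allows, Osr2 was at least 719-fold higher in E(-)T(+) than in E(-)T(-). A fold against the floor takes the reads of the higher library as counted, and with their counting error included the log2 read ratio of Osr2 was 9.19 or more. Between E(+)T(+) and E(-)T(+) its log2 read ratio was -4.55 (95% exact counting interval -4.92 to -4.20), which left 4.28% of the E(-)T(+) level. In the lungs without tumor it was at least 10.4-fold higher after exercise (log2 read ratio of 2.99 or more), although its 29 reads there amount to 1.45% of the E(-)T(+) level. With exercise, tumor lungs were higher than normal lungs by a log2 read ratio of 1.56 (0.91 to 2.24).

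Osr1, the only other odd-skipped gene of the mouse, had the same order of libraries. Osr1 had 48 and 78 reads in the normal lungs and 961 and 164 in the cancer lungs, so unlike Osr2 it was read in normal control lung. The log2 difference of Osr1 was 4.66 between E(-)T(+) and E(-)T(-) and -2.45 between E(+)T(+) and E(-)T(+), smaller in size than those of Osr2.

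Other genes of palate and tooth mesenchyme did not share a direction. Of 18 listed, 11 passed the filter, 6 of them 2-fold or more higher in E(-)T(+) than in E(-)T(-) and 5 lower, where 20.6% and 25.7% of all filtered rows were, with a median log2 difference of 2.38. Shox2, a limb and palate homeobox gene, had 2, 4, 273 and 25 reads in the 4 libraries, and its log2 difference was 6.86. Pax9, which tooth and palate development require, had 0, 0, 72 and 12 reads, at least 30.9-fold higher in E(-)T(+) than in E(-)T(-). Pax9 passed the filter only through E(-)T(+), so nothing is read from the counts of this list against the share of rows. Sema3a, which encodes a secreted guidance cue, had a log2 difference of 2.38. Bmp4, a signal of tooth mesenchyme that lung also uses, went the other way with -1.78. Between E(+)T(+) and E(-)T(+), 6 of the 11 were lower, 3 higher and 2 within 2-fold, where 17.7% of all filtered rows were lower and 24.3% higher.

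St18 had the least support of the 5 genes. It spans chr1:6487231-6860940 on the plus strand and is also known as Myt3. It had 0 reads in both libraries without tumor, 15 in E(-)T(+) and 6 in E(+)T(+), for log2 levels of 0, 0, 4.11 and 2.999. St18 was read in the cancer lungs and in neither normal lung. Against the matching normal library, the 95% exact counting interval of the log2 read ratio began at 2.21 for E(-)T(+) and at 0.58 for E(+)T(+). Between the cancer lungs the log2 read ratio was -1.23, and its counting interval from -2.88 to 0.22 included 0. A lower level of St18 with exercise was therefore not detectable at this depth, and its E(+)T(+) level was 43% of that in E(-)T(+), with an interval from 13.6% to 116%.

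The other MYT1 family genes gave no comparison. Myt1 had 4, 0, 0 and 2 reads and Myt1l 2, 5, 4 and 0 reads, and neither passed the filter. Of 12 transcription factors of pancreatic islets, 4 passed it. Pdx1, which pancreas formation requires, had 0, 3, 42 and 0 reads and passed only through E(-)T(+), so nothing is read from a count or the median of this list. Pax6 had a log2 difference of 4.96. Insm1 went from 14 reads in normal control lung to 0 in cancer control lung, and its log2 read ratio was -1.36 or below. Of the 8 that missed the filter, 4 (Neurod1, Neurog3, Mafa and Pax4) had 0 reads in every library.

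3110039M20Rik lies on chr12:49389652-49407360, plus strand, annotated as a long intergenic non-coding RNA gene with up to 3 exons. Its log2 levels were 0 and 3.47 in the normal lungs and 10.61 and 7.21 in the cancer lungs, from 0, 11, 1429 and 126 reads. As for Osr2, normal control lung had no read and cancer control lung was far above both exercised lungs. The level was at least 614-fold higher in E(-)T(+) than in E(-)T(-) against the floor (log2 read ratio of 8.96 or more). Between E(+)T(+) and E(-)T(+) the log2 read ratio was -3.41 (interval -3.68 to -3.15), so E(+)T(+) held 9.42% of the E(-)T(+) level, with an interval from 7.78% to 11.3%. That interval lies above the one of Osr2 in the same library, 3.30% to 5.46%. Both percents divide by the E(-)T(+) level, for which the genes were chosen, so nothing is read from their order. Scaled by library totals alone, the percents were lower, 6.17% for 3110039M20Rik and 2.80% for Osr2. In lungs without tumor 3110039M20Rik was at least 3.96-fold higher after exercise (log2 read ratio of 1.44 or more), and with exercise it was higher in tumor lungs by 3.87 (2.98 to 4.90).

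The sequence before the start of 3110039M20Rik is shown because this non-coding gene went from 0 reads in E(-)T(-) to 1429 in E(-)T(+). It is the 250 bases upstream on the plus strand, chr12:49389402-49389651 (RefSeq, GRCm38.p6), with the letters TATAAA in capitals.
3110039M20Rik: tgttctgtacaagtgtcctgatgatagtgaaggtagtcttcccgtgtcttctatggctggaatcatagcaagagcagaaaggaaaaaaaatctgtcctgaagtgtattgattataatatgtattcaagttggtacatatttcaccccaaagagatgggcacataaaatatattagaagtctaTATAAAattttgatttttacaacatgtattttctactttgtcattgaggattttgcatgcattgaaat
The window holds 32.8% G and C and 1 CG pair, against medians of 52.4% and 6 over 32851 mouse promoters of the same length, and 92.1% of those hold as many CG pairs or more. TATAAA begins 68 bases before the annotated start, and 12.4% of the promoters hold it on either strand. This window does not hold CCAAT or GGGCGG or TGACTCA or CACGTG, which were searched on both strands.

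3830403N18Rik lies on chrX:56136572-56153498, plus strand, with 8 exons, and is also named Xlrl. Its log2 levels were 1.37 and 3.97 in the normal lungs and 8.57 and 1.79 in the cancer lungs, from 2, 16, 345 and 2 reads. The cancer exercise library was thus as low as the normal control library, and normal exercise lay above both. The log2 read ratio was 7.80 between E(-)T(+) and E(-)T(-) (interval 5.93 to 10.85) and -7.34 between E(+)T(+) and E(-)T(+) (-10.39 to -5.47). E(+)T(+) held 0.651% of the E(-)T(+) level and E(+)T(-) 3.87%. 3830403N18Rik was the only one of the 5 with less in the exercised tumor lung than in the exercised normal lung, with a log2 read ratio of -2.65 (-5.82 to -0.56). In lungs without tumor it was higher after exercise by 3.11 (1.02 to 6.28).

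The relative of 3830403N18Rik nearest in sequence among those compared, Xlr, was also highest in E(-)T(+). Of the 992 words of 31 bases in the 3830403N18Rik transcript, 33% also occur in the Xlr transcript, 1.71% in Slx, and none in Xlr3a, Xlr4a, Xlr4b, Xlr4c, Xlr5c or Sycp3. Xlr had 26 and 56 reads in the normal lungs and 419 and 57 in the cancer lungs. The log2 difference of Xlr was 4.32 between E(-)T(+) and E(-)T(-) and -2.76 between E(+)T(+) and E(-)T(+). Because reads were 75 bases long, words of 75 bases from the last 500 bases of the transcripts were compared across genes, and 3.05% of those of 3830403N18Rik occur in Xlr and Gm14599. Osr2, 3110039M20Rik, St18 and Adam11 shared none with any other gene. Reads from the shared stretch could be counted for either gene.

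The shared stretch is printed because it marks where the counts of 3830403N18Rik and Xlr can mix. It lies in coding sequence, in exon 8 of 3830403N18Rik, and its 87 identical bases are in capitals with 15 bases on each side (GENCODE transcripts, mm10, chrX:56153092-56153208 on the plus strand and chrX:53784037-53784153 on the minus strand).
3830403N18Rik: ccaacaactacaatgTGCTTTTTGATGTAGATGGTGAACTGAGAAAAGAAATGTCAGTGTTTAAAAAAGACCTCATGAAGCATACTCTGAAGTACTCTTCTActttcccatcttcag
Xlr: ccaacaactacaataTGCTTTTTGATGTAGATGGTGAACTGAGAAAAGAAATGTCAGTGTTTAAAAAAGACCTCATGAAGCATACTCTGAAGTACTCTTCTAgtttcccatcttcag
The 87 bases begin at position 631 of the transcript of 3830403N18Rik and end 305 bases before its 3' end. Longer identical stretches of 95 and 119 bases lie further upstream.

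The other relatives of 3830403N18Rik are given as counts. Of 14 relatives listed, 6 passed the filter, 1 of them (Xlr) 2-fold or more higher in E(-)T(+) than in E(-)T(-), 4 lower and 1 within 2-fold, where 20.6% of all filtered rows were higher and 25.7% lower, with a median of -1.77. Sycp3, a part of the axis of meiotic chromosomes that is related to XLR proteins, had a log2 difference of -2.002. Sly, a relative on the Y chromosome, had -2.71, from 1 read in E(-)T(+) against 15 in E(-)T(-). Sly passed the filter only through E(-)T(-), so nothing is read from the number of lower relatives. Of 6 genes of meiotic germ cells, Sycp3 among them, 2 passed the filter, 1 of them lower, and Sycp1 and Dazl had 0 reads in every library.

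A gene beside 3830403N18Rik had a similar profile. The end of Gm773 lies 36328 bases beyond that of 3830403N18Rik on the opposite strand, and it was named after its values were seen. Gm773 had 0 and 2 reads in the normal lungs and 148 and 0 in the cancer lungs. It was at least 63.6-fold higher in E(-)T(+) than in E(-)T(-) and at least 46.2-fold lower in E(+)T(+) than in E(-)T(+). The transcripts of Gm773 share no word of 31 bases with 3830403N18Rik. Of 5 filtered genes within 500 kb of 3830403N18Rik, 1 (Gm773) was 2-fold or more higher in E(-)T(+) than in E(-)T(-) and 3 were lower. Over all filtered rows 20.6% were higher and 25.7% lower by that limit. Gm773 passed the filter only through E(-)T(+), for which 3830403N18Rik was chosen, so nothing is read from this count or from the likeness.

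The 250 bases before the starts of this pair are printed for comparison, with CCAAT and GGGCGG (here as its complement CCGCCC) in capitals. That of 3830403N18Rik is chrX:56136322-56136571 on the plus strand and that of Gm773 is chrX:56212882-56213131 on the minus strand (RefSeq, GRCm38.p6). The former adjoins the GENCODE start, chrX:56136572, whereas the whole RefSeq gene is given from chrX:55839252, so distances below count from the former start.
3830403N18Rik: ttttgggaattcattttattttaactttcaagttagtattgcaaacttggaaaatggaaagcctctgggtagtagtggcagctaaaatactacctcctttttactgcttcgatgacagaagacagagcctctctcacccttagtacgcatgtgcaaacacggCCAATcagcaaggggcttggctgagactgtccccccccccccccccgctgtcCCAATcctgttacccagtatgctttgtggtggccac
Gm773: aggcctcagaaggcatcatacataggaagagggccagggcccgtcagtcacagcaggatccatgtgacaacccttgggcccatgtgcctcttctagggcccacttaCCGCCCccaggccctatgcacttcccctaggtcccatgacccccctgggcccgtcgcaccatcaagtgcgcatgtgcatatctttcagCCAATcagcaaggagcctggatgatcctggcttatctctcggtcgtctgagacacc
CCAAT begins 88 and 36 bases before the start of 3830403N18Rik and 56 bases before that of Gm773, and 33.8% of mouse promoters hold it on either strand. GGGCGG lies 144 bases before the start of Gm773, as it does somewhere in 32.7% of promoters. Neither window holds TATAAA, and neither holds TGACTCA (found in 4.46% of promoters) or CACGTG (6.02%). The windows hold 48.4% and 59.2% G and C.

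Adam11 lies on chr11:102761439-102780262, plus strand, with up to 27 exons. Its log2 levels were 2.10 and 0 in the normal lungs and 7.91 and 2.21 in the cancer lungs, from 4, 0, 219 and 3 reads. The other 3 libraries were at or near the floor and E(-)T(+) stood alone. The log2 read ratio was 6.14 between E(-)T(+) and E(-)T(-) (interval 4.77 to 8.03) and -6.10 between E(+)T(+) and E(-)T(+) (-8.39 to -4.53), which left 1.52% of the E(-)T(+) level. The other comparisons rested on 0 to 4 reads. The interval between E(+)T(-) and E(-)T(-) reached up to 0.71 and that between E(+)T(+) and E(+)T(-) began at -0.93, so both included 0 and neither difference was detectable at this depth.

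Other ADAM genes did not follow Adam11 as a group. Of 13 that passed the filter, 5 were 2-fold or more higher in E(-)T(+) than in E(-)T(-), 3 lower and 5 within 2-fold, where 20.6% of all filtered rows were higher and 25.7% lower, and the median log2 difference was 0.003. Adam12, a protease of mesenchyme and tumors, had 3, 6, 333 and 32 reads and a log2 difference of 6.73. Adam8, a protease of myeloid cells, had 3.38. Adam10 and Adam15, which are widely expressed proteases, had 0.003 and -0.21.

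The closest relatives of Adam11 and its neuronal partners did not share a direction. Adam22 and Adam23, the other ADAM proteins that bind LGI ligands, went opposite ways, with log2 differences of -1.61 and 1.03 between E(-)T(+) and E(-)T(-). Of 9 filtered genes for these relatives, LGI ligands, Kv1 potassium channels and their scaffold, 2 were 2-fold or more higher in E(-)T(+), 5 lower and 2 within 2-fold, with a median of -1.61, where 20.6% of all filtered rows were higher and 25.7% lower. An LGI gene among the lower ones, with 16 reads against 3, passed the filter only through E(-)T(-). Nothing is therefore read from the counts of this list against the share of rows. Lgi3 had 1026 reads in normal control lung and 45 in cancer control lung, a log2 read ratio of -4.14 (interval -4.61 to -3.71). Alveolar epithelium, whose markers were lower too, also makes Lgi3, and its part in this difference was not tested. Of the channel genes, Kcna2 had 165 and 3 reads in those libraries, a log2 read ratio of -5.42 (-7.71 to -3.84). Kcna6 had 48 and 0, a log2 read ratio of -3.28 or below. Between E(+)T(+) and E(-)T(+) 3 of the 9 were higher and 1 lower, where 24.3% of all filtered rows were higher and 17.7% lower.

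**Figure D2:**
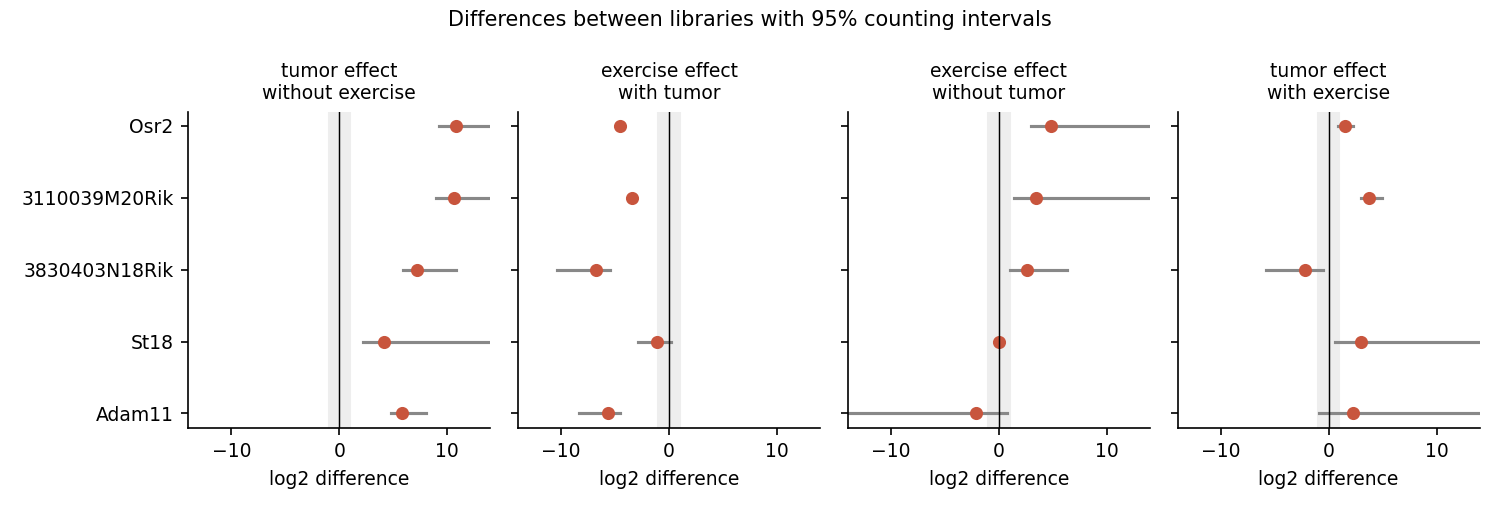
Differences of the 5 genes in the 4 comparisons, with circles for the difference of deposited log2 levels and lines for the 95% exact counting interval of the log2 read ratio, which run to the panel edge where 1 library had 0 reads. Shading marks differences within 2-fold, and the interval of St18 in the exercise effect with tumor (-2.88 to 0.22) crosses 0. St18 had 0 reads in both libraries of the exercise effect without tumor and has no interval there.

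**Figure D3:**
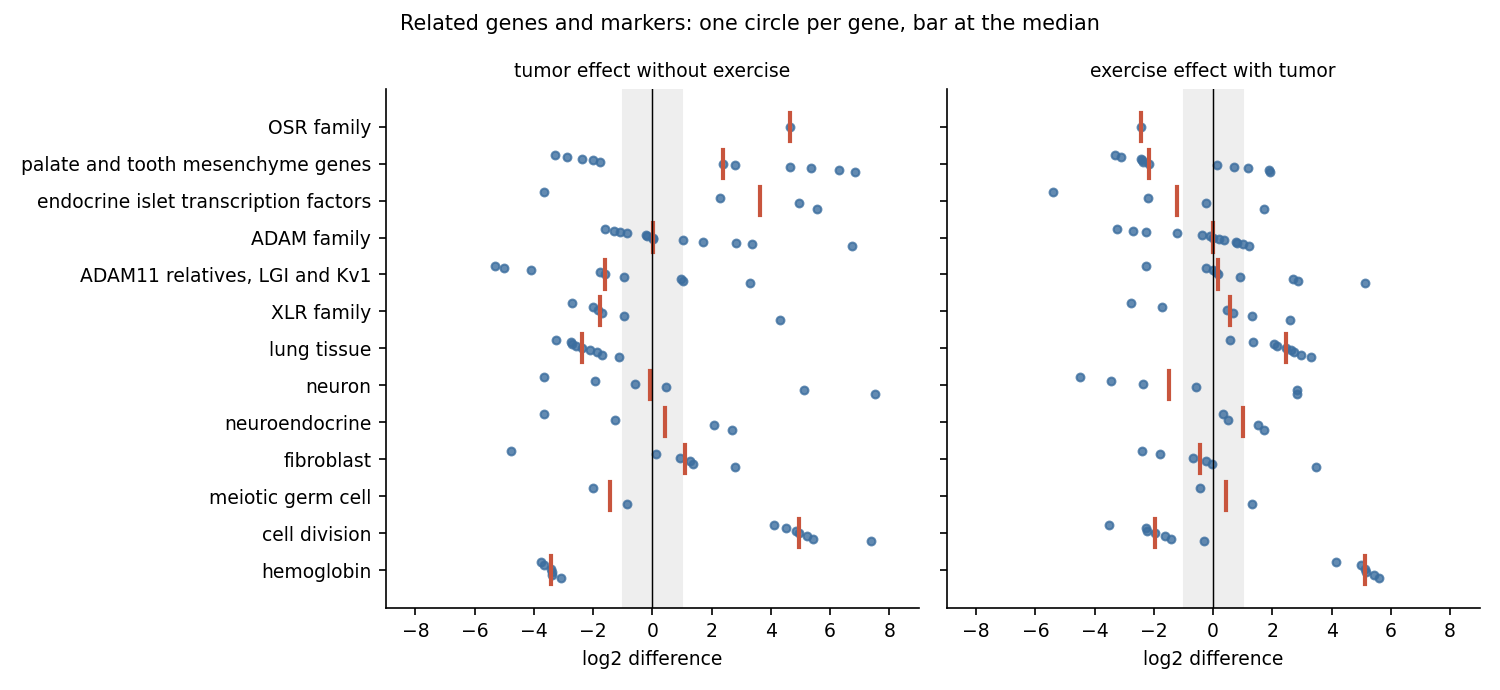
Log2 differences of related genes and markers that passed the filter, without the 5 genes, in the tumor effect without exercise (left) and the exercise effect with tumor (right), with a circle per gene, a bar at the median of each list and shading within 2-fold. Cell division genes lie to the right of 0 in the left panel (median 4.96) and lung tissue genes to the left (median -2.39), while ADAM genes centre on 0.003.

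Neighbours on the chromosome were compared for Osr2, 3830403N18Rik, St18 and Adam11, within 500 kb on each side. Around Osr2, Stk3 and Vps13b had log2 differences of 0.66 and 0.24, within 2-fold. Around St18, neither filtered neighbour was 2-fold or more higher and 1 was lower. Adam11 has the densest surroundings, with 29 filtered neighbours, 8 of them higher and 6 lower, where 20.6% and 25.7% of all filtered rows were, and nothing particular to these neighbours is read from the counts. Those nearest to it, Gjc1, Higd1b and Eftud2, had log2 differences of 0.88, -3.38 and 1.25. Among these 4 genes, a neighbour with a difference as large as that of the gene itself was seen beside 3830403N18Rik (Gm773). This difference includes the E(-)T(+) peak for which 3830403N18Rik was chosen, and Gm773 passed the filter only through that library. Nothing is therefore read from the likeness.

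**Figure D4:**
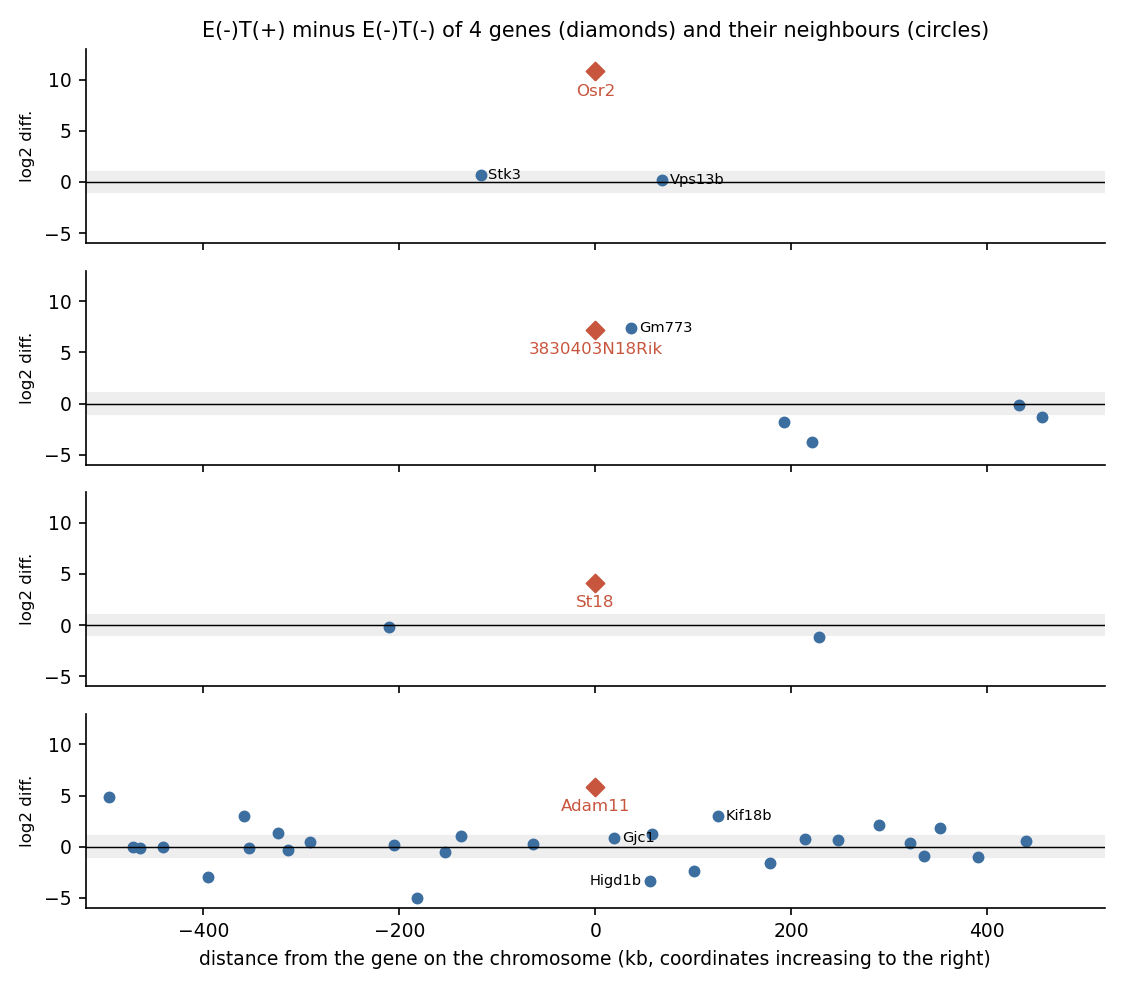
Log2 difference between E(-)T(+) and E(-)T(-) (vertical axis) against distance in kb (horizontal axis) for 4 of the genes (diamonds) and their filtered neighbours (circles), with shading within 2-fold. Gm773 lies at the height of 3830403N18Rik, whereas Stk3 and Vps13b stay near 0 beside Osr2 at 10.84.

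The shapes of the 5 profiles were compared as a description. Likeness was measured as the distance between the 4 log2 levels of 2 genes after each gene was centred on its own mean, over 4 libraries. Osr2 and 3110039M20Rik were close to each other (1.58), whereas all other pairs among the 5 were 3.60 to 5.39 apart. These distances include the E(-)T(+) peak for which the genes were chosen and levels at or near 0 reads, which the added 1 of the log scale sets, so no separate profiles are read from them. Of all filtered rows, those near Osr2 included Etv4, an ETS transcription factor (1.46), then 3110039M20Rik, Grem1, a secreted BMP antagonist, and Rpl39l, a copy of a ribosomal protein gene. Nearest to 3110039M20Rik were AA467197 (0.849), Etv4, the granzyme genes Gzmd and Gzmg, and Rpl39l.

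For 3830403N18Rik the nearest rows were Grpr, the receptor of gastrin-releasing peptide (0.842), Cryaa, a lens crystallin, Gm773 (0.984), Dmrta1 and Pdx1, all of which had 0 reads in E(+)T(+). For Adam11 they were Stra6, a cell surface receptor for retinol binding protein (1.04), 9130024F11Rik, D630033O11Rik, Ckap2 and Rarres1. For St18 they were Otud7a (0.076), Cenpn, Cyp2c55, Hrk and Cenpe. Otud7a, Cyp2c55 and Hrk had 5 to 17 reads in the cancer lungs, so their likeness to St18 rests on few reads. Cenpn and Cenpe, which encode centromere proteins of dividing cells, had 149 and 65 reads and 710 and 259 reads in E(-)T(+) and E(+)T(+).

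The share of each gene's normalized counts that fell in E(-)T(+), out of the sum over the 4 libraries, was 94.6% for Osr2, 90.9% for 3110039M20Rik, 95.3% for 3830403N18Rik, 97.2% for Adam11 and 69.9% for St18. These shares restate the choice of the genes and are given as a description, with St18 the lowest of the 5.

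To place the low levels of the other libraries, 81 genes were taken that were 32-fold or more higher in E(-)T(+) than in E(-)T(-) and had 200 or more normalized counts there. This limit was set after the values were seen, and Osr2, 3110039M20Rik, 3830403N18Rik and Adam11 are among the 81. Their level in E(+)T(-), from mice without tumor cells, had a median of 2.72% of the E(-)T(+) level, and 1 of the 81, Adam11, had 0 reads there. In E(-)T(-) 15 had 0 reads, but low values there were part of the choice. All these percents divide by the E(-)T(+) level, for which the genes were chosen, so where they lie against the medians restates that choice and nothing is read from it. In E(+)T(-), Osr2 had 1.45% from 29 reads, 3110039M20Rik 0.642% from 11, and 3830403N18Rik 3.87% from 16 (interval 2.20% to 6.41%). What these low levels in E(+)T(-) come from was not tested. In E(+)T(+) the median was 13.9%. The values there were 0.651% for 3830403N18Rik (2 reads, interval 0.0746% to 2.25%), 1.52% for Adam11 (3 reads, 0.299% to 4.33%), 4.28% for Osr2 and 9.42% for 3110039M20Rik. The interval of 3830403N18Rik holds the value of Adam11, so their order is not resolved.

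**Figure D5:**
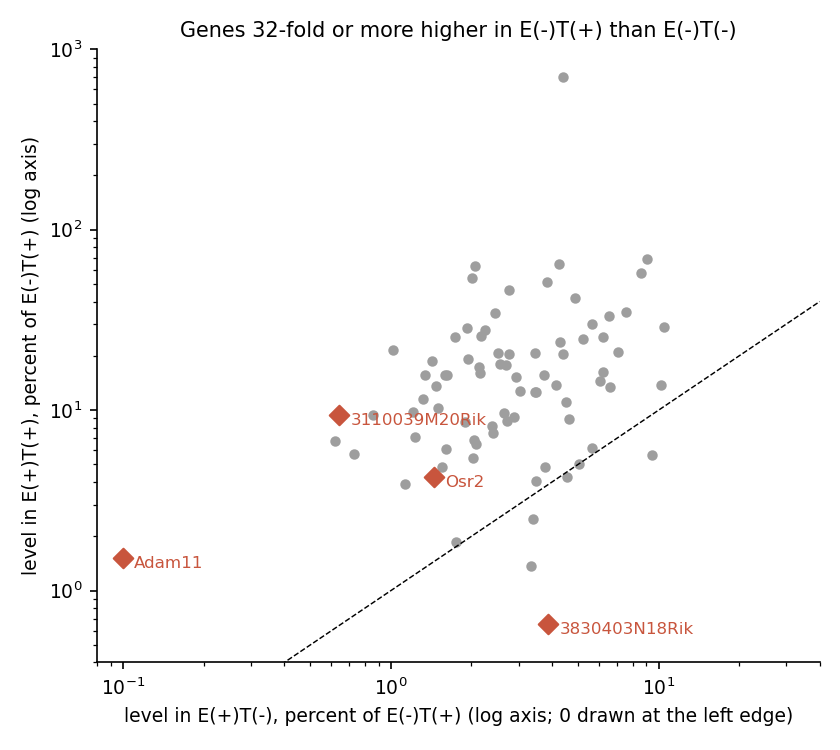
Level in E(+)T(-) (horizontal) against level in E(+)T(+) (vertical), each as a percent of the level in E(-)T(+) on a log axis, for the 81 genes that were 32-fold or more higher in E(-)T(+) than in E(-)T(-). Diamonds mark Osr2, 3110039M20Rik, 3830403N18Rik and Adam11, the last drawn at the left edge for its 0%, and 3830403N18Rik is drawn at 0.651% from 2 reads (interval 0.0746% to 2.25%), below the dashed line of equal percents.

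Markers of other cell types that use these genes were mixed. Of 9 neuron markers, 6 passed the filter, 2 of them 2-fold or more higher in E(-)T(+) than in E(-)T(-) and 2 lower, against 20.6% and 25.7% of all filtered rows, and the list's summed normalized counts were 1507, 2016, 882.5 and 884 in the 4 libraries. Nefl, a neurofilament gene that passed only through E(-)T(+), had 0, 0, 167 and 6 reads, whereas Stmn2 had 1154, 1412, 70 and 472. Snap25 and Elavl3 had at most 3 reads in any library. Neuroendocrine markers were summed to 39.4 to 143.6 normalized counts, with 2 of 4 filtered genes higher and 2 lower. Among the higher ones, Chga rested on 5 reads against 0. Among the lower ones, Insm1 passed the filter only through E(-)T(-). Syp rested on 2 reads against 8, and its counting interval from -4.91 to 0.69 included 0. For these reasons no direction is read from the neuroendocrine list. Fibroblast markers were summed to 8986, 8205, 30120 and 12090 normalized counts, with 3 of 6 higher, 1 lower and Col1a2 highest in E(-)T(+) at 16384 reads. Tcf21, a fibroblast marker of normal lung, had 804, 511, 22 and 238 reads. The part of any of these cells in the levels of the 5 genes was not tested.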

How the data were processed

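The authors prepared lung libraries from poly(A) ends, sequenced 75 bases from 1 end, and deposited log2 values per gene, found here to be log2(normalized read count + 1). The submitters' processing notes name Bowtie2, bedtools and mm10, and the study names quantile normalization in edgeR. Versions, annotation and use of strand are not given in the sources used here. Whole reads were recovered by inverting a negative binomial quantile adjustment, with a fitted dispersion of 0.372 that returned 99.5% of values to all 3 decimals, and tested on simulated data (Python 3.11.15, numpy 2.4.6, scipy 1.17.1). The simulation used the same adjustment, so it could not test whether the authors used it. An added read changed the printed value for 97.2% of values, so the largest counts, and the depths that include them, are approximate. Libraries were grouped by their titles. With 1 library per group no test was run. Differences of log2 values were set against a 2-fold limit, over rows with a mean normalized count of at least 4, and the fold against 0 reads used 3 reads per library as a floor. Intervals are exact (Clopper-Pearson, 95%) on read ratios scaled by the fitted library sizes. Since no molecular identifiers are mentioned, these bounds describe counting error alone. The genes and lists were chosen with earlier results of these data known. Genes named are the 5, the 5 rows nearest each in profile, and at most 4 of each list (highest mean or largest difference), apart from those said to be named after their values were seen, Adam22 and Adam23 as direct relatives, and markers at or near 0. Some genes that these rules would name are not reported here. Coordinates are from GENCODE M21 and promoters from RefSeq. Promoters of 3110039M20Rik, 3830403N18Rik and Gm773 matched, whereas Osr2, St18 and Adam11 had no entry. Scaling, pseudocount, fold limit and filter were varied.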

Additional observations from a re-analysis of the deposited data

Results flagged for a closer look

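In all, 3 genes had effects of opposite sign under the same contrast, which was not tested, since each group had 1 library. The exercise effect on Osr2 was 4.79 (log2 difference) without tumor and -4.53 with tumor. For 3110039M20Rik it was 3.47 without tumor and -3.40 with tumor. For 3830403N18Rik it was 2.59 without tumor and -6.77 with tumor, and its tumor effect was 7.19 without exercise and -2.18 with exercise. The negative exercise effects with tumor, and the tumor effect without exercise, follow from choosing genes that peak in E(-)T(+), and the positive ones without tumor rest on 29, 11 and 16 reads in E(+)T(-) against 0, 0 and 2 in E(-)T(-).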

How the results depend on the processing

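A pseudocount sets the size of a log2 difference and cannot change its sign, and where 1 library had 0 reads the counting interval has no outer end, so the alternatives test little there. Outside their counting interval fell, under library totals alone, the exercise effect with tumor on Osr2 (-5.13) and on 3110039M20Rik (-4.01). With a pseudocount of 4, so did the tumor effect without exercise on both (8.84 and 8.62) and the exercise effect without tumor on Osr2 (2.93). Library totals alone moved the E(+)T(+) level, as a percent of that in E(-)T(+), from 4.28% to 2.80% for Osr2, 9.42% to 6.17% for 3110039M20Rik, 0.651% to 0.406% for 3830403N18Rik, 1.52% to 0.959% for Adam11 and 43% to 28% for St18. The differences that crossed the 2-fold limit were those of St18 between the cancer lungs (-1.11, from -1.67 to -0.88 over the alternatives), of Adam11 between the normal lungs (-2.10, from -3.82 to -0.87) and of Adam11 with exercise (2.21, from 0.93 to 3.96). Over all rows, genes at 2-fold or more numbered 7011 for the tumor effect without exercise, 6371 for the exercise effect with tumor, 1513 for the exercise effect without tumor and 4223 for the tumor effect with exercise. With a fold limit of 4 they numbered 3244, 2489, 403 and 1310, with a mean normalized count of at least 50 they numbered 4551, 4061, 323 and 2255, and with no filter those of the exercise effect without tumor numbered 2606. These counts follow from the limits and the number of rows. Library totals alone as scaling moved the share of higher genes among them from 57.8% to 31.6% for the exercise effect with tumor and from 53.5% to 28.2% for the tumor effect with exercise, with medians of all rows shifted to -0.59 and -0.41. No paired analysis was possible because each group has 1 library, and for the same reason no library could be left out. Few reads limit St18 in every library and Adam11 outside E(-)T(+).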
